A study of Mus musculus with 12 samples.

Results

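The ERBB (HER) receptor family and its ligands were followed in bulk RNA of tumor and liver as 10 genes of 52636 gene identifiers counted: the receptors Egfr, Erbb2, Erbb3 and Erbb4, the ligands Areg, Ereg, Btc, Hbegf and Nrg1, and the adaptor Grb7. They were chosen by name, since Erbb2 is the mouse counterpart of the antibody's tumor target HER2, and each was found once in the count table by its GENCODE M21 symbol. The libraries came from FVB/NJ female mice, immune-competent wild-type hosts that carried Fo5 tumors in the mammary fat pad. Fo5 stands for Founder #5 of the MMTV-HER2 transgenic line, so all tumors derive from 1 founder, were passed on as transplanted pieces, and carry HER2 under the MMTV promoter, which is active in mammary epithelium. The groups were tumor and liver of mice given 1 intravenous dose of 5 mg/kg of anti-HER2(4D5-2C11)/CD3, a T cell-dependent bispecific antibody (TDB), and tumor and liver of mice given the histidine acetate vehicle buffer, all taken 24 h after the dose. Each of the 4 groups had 3 libraries, from 3 mice per treatment, as stated in the design text.

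ERBB receptors are receptor tyrosine kinases that pair with one another when a ligand binds. Areg binds Egfr, Btc, Ereg and Hbegf bind Egfr and Erbb4, and Nrg1 binds Erbb3 and Erbb4, while no ligand is known for Erbb2, which acts as the preferred partner of the others. Erbb3 has little kinase activity of its own and couples its partners to PI3-kinase. The family drives growth of the mammary gland and, when HER2 is in excess, of breast cancer, and in the liver Egfr is the abundant receptor of hepatocytes.

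Erbb2 (ENSMUSG00000062312) lies on chromosome 11, 98412470 to 98437716 of GRCm38 on the plus strand, and Grb7 begins 8.678 kb beyond its end, at 98446394 to 98455373. Egfr is on the same chromosome at 16752203 to 16918158, Erbb3 on chromosome 10 at 128567523 to 128589652 and Erbb4 on chromosome 1 at 68032186 to 69108059. Ereg, Areg and Btc form a cluster on chromosome 5, with 45.953 kb between Ereg and Areg and 208.829 kb between Areg and Btc. Nrg1 is on chromosome 8. The last 9 bases of Erbb2 overlap Mien1 on the opposite strand, where reads of the pair could not be told apart, since no source used here gives the strand setting of the count. The count table lists mouse identifiers, and whether reads of the HER2 transgene were counted under Erbb2 is not given either. Every Erbb2 value in tumor below is therefore a value of the Erbb2 identifier, in which the mouse gene and transgene reads could not be told apart.

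Windows of 250 bases before the RefSeq gene start (GRCm38.p6), which for Erbb2 lies beyond the start given above (98412470), were matched for 5 of the 10 genes. Windows of 3 of them are printed because these genes span the range of tissue patterns described next: Erbb2 and Areg were far higher in tumor than in liver, and Egfr had length-corrected levels that overlapped between the tissues of vehicle mice. Each is read 5′ to 3′ on the gene's strand, all 3 on the plus strand. Capitals mark matches, on either strand, to motifs of the TATA box (TATAAA), of the promoter element called the CCAAT box, of the factor AP-2 (GCCNNNGGC), and of the cAMP response element (TGACGTCA).
Erbb2, chr11:98412234-98412483: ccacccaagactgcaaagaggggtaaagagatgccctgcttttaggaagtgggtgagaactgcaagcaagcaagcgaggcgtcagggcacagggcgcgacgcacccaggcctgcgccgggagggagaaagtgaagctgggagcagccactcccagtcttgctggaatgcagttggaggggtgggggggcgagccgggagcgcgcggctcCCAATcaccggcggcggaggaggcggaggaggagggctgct
Areg, chr5:91139349-91139598: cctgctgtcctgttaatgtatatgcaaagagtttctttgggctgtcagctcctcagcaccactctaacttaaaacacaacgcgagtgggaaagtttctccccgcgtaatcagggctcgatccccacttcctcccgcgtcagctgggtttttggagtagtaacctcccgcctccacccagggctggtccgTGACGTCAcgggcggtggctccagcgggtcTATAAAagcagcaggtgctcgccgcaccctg
Egfr, chr11:16751953-16752202: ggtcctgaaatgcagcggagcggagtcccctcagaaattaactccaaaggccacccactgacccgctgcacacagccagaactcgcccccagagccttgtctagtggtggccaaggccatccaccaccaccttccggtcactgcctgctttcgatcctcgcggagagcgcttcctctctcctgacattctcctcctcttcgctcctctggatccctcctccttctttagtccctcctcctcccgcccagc
The Erbb2 window held 1 CCAAT match, as 33.8% of 32851 windows of this length did. The Areg window held 1 TATAAA match, found in 12.4% of windows, and 1 TGACGTCA match, found in 1.55%. TGACGTCA was added to the motifs after the windows were read, so its share does not measure how unexpected the match was. No match to GCCNNNGGC (13.7% of windows) lay in the windows of Erbb2, Areg, Egfr, Erbb4 or Btc. A match describes letters only, and none of these data measure binding there.

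Library depth was 20796764 to 29396324 counts in tumor and 18460159 to 25542980 in liver. The labelled tissues carried their defining genes: Csn3, which encodes a milk casein, held 1.83% to 2.21% of the counts of a tumor library, and albumin (Alb) held 7.96% to 14.3% of those of a liver library. Replicate spread, as edgeR's common biological coefficient of variation, was 13% in tumor and 32.3% in liver. The library liver TDB 3 stood apart, at 87 on a first component that held 57.7% of the liver variance, against -53.6 to 5.92 for the other 5. Its share of mitochondrial counts was 2.05%, against 0.847% to 1.28% in the other liver libraries. Over 13649 genes its deviation from the liver mean rose with exonic length (Spearman's rho 0.63, a description across genes). Such trends were not particular to this library: rho was -0.59 and -0.48 in liver TDB 1 and 2. In liver vehicle 1, 2 and 3 rho was 0.13, -0.45 and 0.47. Because liver TDB 3 stood apart on the first component, fold changes of the members in liver are given with and without it. The same holds for differences between tissues that use it.

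The first question was which family members differed in tumor between mice given TDB and mice given vehicle. Erbb2 fell, and it was the member past the threshold of adjusted p = 0.05 among 10 tested. Its library-scaled counts, as CPM, were 363, 337 and 375 in TDB tumors, against 543, 545 and 516 in vehicle tumors. The groups did not overlap, and the means were 358 ± 19.5 and 534 ± 15.9 CPM (SD, n = 3 mice each). The log2 fold change was -0.58 (SE 0.08, adjusted p = 0.00062 by edgeR's quasi-likelihood test, Benjamini-Hochberg adjusted over 15454 genes). Of all genes tested, 28.8% passed, 15.8% as higher and 13.1% as lower (2437 and 2019 genes; 2075 and 2991 with upper quartile scaling), so 1 call among 10 members is no more than the background. In these bulk samples fewer cells of a type and less RNA per cell cannot be told apart. The call was lost in a fit that shared its spread with liver (all 12 libraries, log2 fold change -0.66, adjusted p = 0.104) and was kept in the other 11 alternatives.

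**Figure D1:**
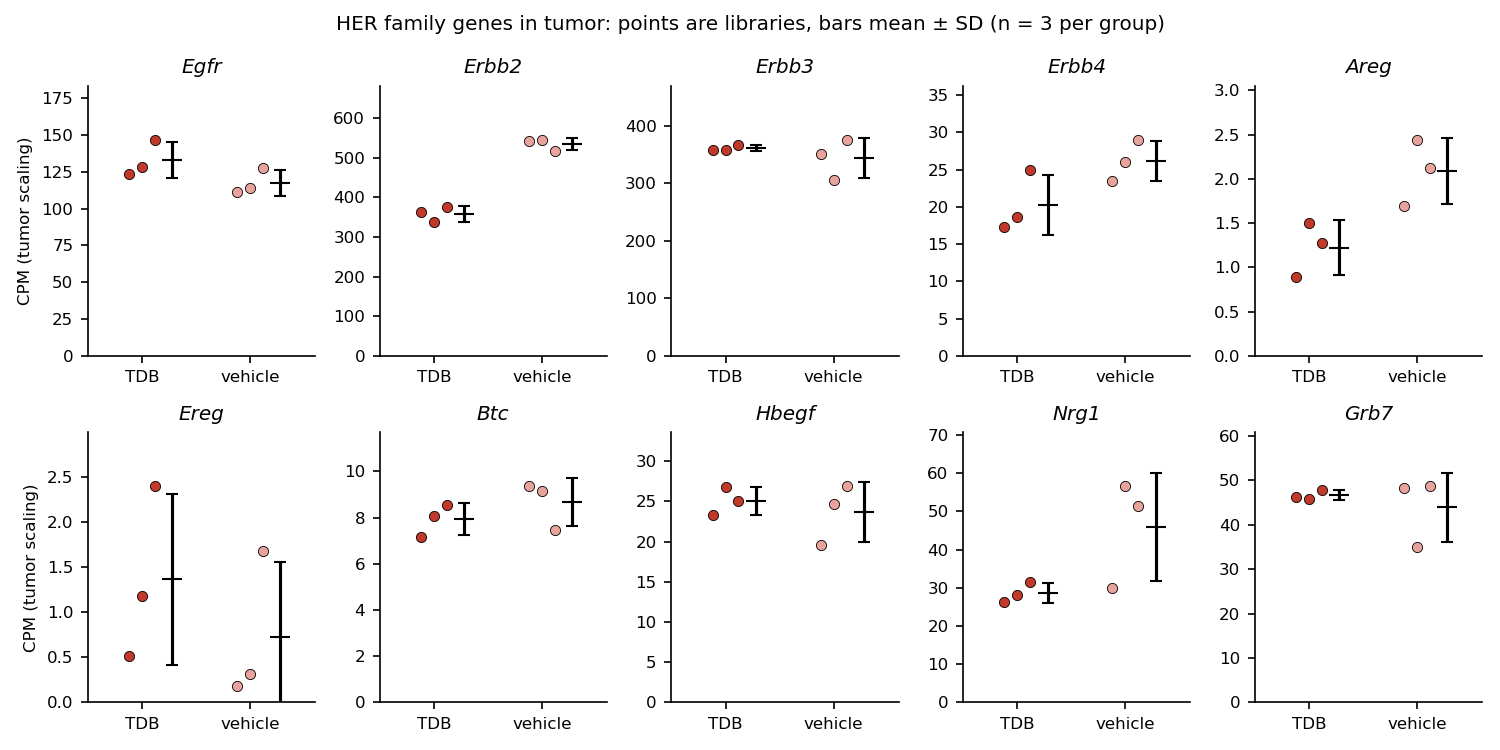
Scaled CPM of the 10 genes in tumor, TDB left and vehicle right in each panel; points are libraries (n = 3 per group), bars the mean ± SD, and the bar of Ereg in vehicle tumors runs below the axis. Erbb2 and Areg are the panels in which every TDB library lies below every vehicle library.

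The epithelial content of the tumor libraries was read from 10 luminal markers, 9 of which were testable. Of these 0 were higher and 1 was lower (Krt8, a luminal keratin, log2 fold change -0.27), with a median of -0.0029, beside a median over all genes of -0.02, and 2 had an unadjusted p under 0.05. DESeq2 and the other alternatives called 0 luminal markers higher and 0 to 2 lower. Their summed level was 25115 to 26078 CPM in TDB tumors, against 21150 to 24935 CPM in vehicle tumors, and most of that sum was Csn3. The other 9 markers summed to 3405 to 3802 CPM in TDB tumors, against 3502 to 4115 CPM in vehicle tumors, and the groups overlapped. The next comparison used the 9 testable markers, Csn3 among them. On the log2 scale, Erbb2 minus the mean of these 9 was -0.42, -0.51 and -0.23 in TDB tumors, against 0.08, 0.22 and 0.14 in vehicle tumors. Erbb2 was thus lower relative to these markers in each TDB tumor. The same difference for Erbb3 was -0.44, -0.42 and -0.26 in TDB tumors, against -0.55, -0.62 and -0.32 in vehicle tumors, and here the groups overlapped.

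Markers of immune cells moved with the Erbb2 difference. Of 9 T cell markers 8 were higher with TDB, and their summed level was 16.6 to 27.5 CPM in TDB tumors, against 2.89 to 5.68 CPM in vehicle tumors. Cd3e was at 0 in every vehicle tumor, and Cd8a was at 3.91, 2.94 and 1.95 CPM in TDB tumors, against 0.137, 0.0903 and 0 CPM in vehicle tumors. Among monocyte and macrophage markers 5 of 8 were higher (summed level 337 to 472 CPM in TDB tumors, against 171 to 273 CPM in vehicle tumors), and among testable neutrophil markers 3 of 4. Of 6 endothelial markers Kdr and Emcn were lower, and of 7 fibroblast and pericyte markers 0 passed, with 0 at an unadjusted p under 0.05 and 0 to 1 in the alternatives, DESeq2 among them. The part of these cell types in the Erbb2 result was not tested.

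The remaining receptors did not pass. Erbb3 was at 358, 358 and 367 CPM in TDB tumors, against 350, 306 and 375 CPM in vehicle tumors (log2 fold change 0.07, SE 0.09), a difference inside the spread of the vehicle group. Egfr was at 124, 128 and 147 CPM in TDB tumors, against 111, 114 and 127 CPM in vehicle tumors (log2 fold change 0.18, SE 0.09, adjusted p = 0.159 by edgeR's quasi-likelihood test). Its groups overlapped by a narrow margin. Erbb4, the neuregulin and Btc receptor, was at 17.3, 18.6 and 24.9 CPM in TDB tumors, against 23.5, 26 and 29 CPM in vehicle tumors. Its log2 fold change of -0.37 (SE 0.15) had an unadjusted p of 0.033 and an adjusted p of 0.0908 by edgeR's quasi-likelihood test. Without tumor TDB 3, the highest of its group, the log2 fold change was -0.54 and passed (adjusted p = 0.0149, same test). With single libraries left out it ranged from -0.54 to -0.27, and it passed in 4 of 12 alternatives.

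None of the 5 ligands passed in tumor. Areg, an Egfr ligand of the developing mammary duct, had 0.896, 1.51 and 1.27 CPM in TDB tumors, against 1.69, 2.44 and 2.12 CPM in vehicle tumors. Every TDB tumor lay below every vehicle tumor, yet at 19 to 54 counts per library the log2 fold change of -0.75 (SE 0.27) reached adjusted p = 0.0699 by edgeR's quasi-likelihood test. Such separation was seen for 2 members, Erbb2 and Areg, as lower and for 0 as higher, beside 23.1% and 23% of all genes (46.1% in either direction). Nrg1, the ligand of Erbb3 and Erbb4, had 26.3, 28.1 and 31.5 CPM in TDB tumors, against 29.8, 56.5 and 51.3 CPM in vehicle tumors. Here vehicle 1 lay among the TDB libraries, and the log2 fold change of -0.68 (SE 0.23) had adjusted p = 0.074 by the same test. Without tumor vehicle 1 it was -0.91 (adjusted p = 0.00122, edgeR's quasi-likelihood test). With single libraries left out it ranged from -0.91 to -0.50, and it passed in 3 of 12 alternatives.

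Hbegf, on chromosome 18, had the highest length-corrected level of the 5 ligands in every TDB tumor. It had 23.3, 26.8 and 25 CPM there, against 19.6, 24.7 and 26.9 CPM in vehicle tumors (log2 fold change 0.08, SE 0.12). Btc had 7.17, 8.07 and 8.55 CPM in TDB tumors, against 9.34, 9.17 and 7.46 CPM in vehicle tumors (log2 fold change -0.13, SE 0.14). For both the groups overlapped. Ereg varied most within groups, with 0.519, 1.18 and 2.39 CPM in TDB tumors, against 0.183, 0.316 and 1.68 CPM in vehicle tumors (log2 fold change 0.89, SE 0.86). Vehicle 3 alone held 38 of the 49 vehicle counts, and TDB 3 held 49 of the 93 TDB counts. With single libraries left out the log2 fold change ranged from 0.25 to 2.42. It passed in 1 of 12 alternatives, the fit without vehicle 3 (2.42, adjusted p = 0.0402, edgeR's quasi-likelihood test).

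Grb7, the SH2-domain adaptor that docks on HER2, had 46.2, 45.9 and 47.9 CPM in TDB tumors, against 48.2, 35 and 48.6 CPM in vehicle tumors (log2 fold change 0.09, SE 0.12). Its groups overlapped. Over the 10 members the median log2 fold change in tumor was -0.03, beside -0.02 over all genes, and 4 members had an unadjusted p under 0.05: Erbb2, Erbb4, Areg and Nrg1, each lower. Of all genes tested in tumor 40.6% had such a p, a share like that of the members.

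The make-up of the family was compared in TPM, a level that divides counts by exonic length so that genes can be set against each other. In tumor Erbb2 stood at 243 ± 16.5 TPM with TDB and 400 ± 15 TPM with vehicle, and Erbb3 at 212 ± 5.84 TPM with TDB and 223 ± 20.3 TPM with vehicle (SD, n = 3 each). In TDB tumors the Erbb2 libraries ranged from 225 to 258 TPM and the Erbb3 libraries from 208 to 219 TPM. In vehicle tumors the ranges were 386 to 416 TPM for Erbb2 and 202 to 243 TPM for Erbb3. Egfr followed with 41.5 ± 4.27 TPM in TDB tumors and 40.4 ± 3.11 TPM in vehicle tumors, and Erbb4 with 5.81 ± 1.23 TPM in TDB tumors and 8.27 ± 0.915 TPM in vehicle tumors. Erbb2 made up 49.2%, 47.2% and 48.6% of the TPM of the 4 receptors in TDB tumors, against 59.8%, 62.4% and 56.6% in vehicle tumors. Erbb3 made up 42.3% ± 1.13 with TDB and 33.1% ± 2.66 with vehicle, and neither pair of groups overlapped. The share of Egfr did not overlap either, at 7.73% to 8.75% with TDB and 5.63% to 6.42% with vehicle. Shares of 1 sum are not independent, since a lower value of 1 gene by itself raises the shares of the rest. In TPM itself the groups overlapped for Erbb3 and for Egfr. In CPM, 46.1% of all genes tested in tumor had groups that did not overlap. The summed receptor TPM was 478 to 530 in TDB tumors, against 666 to 681 in vehicle tumors. These shares are descriptions, since 3 libraries against 3 cannot give a two-sided exact permutation p below 0.1.

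The ligands together held 39 ± 3.86 TPM in TDB tumors and 51.3 ± 9.9 TPM in vehicle tumors, and the groups overlapped (34.7 to 42 TPM with TDB, against 40 to 58.3 TPM with vehicle). Hbegf was 44.1% to 49.2% of this sum in TDB tumors, against 34.8% to 38.8% in vehicle tumors. Nrg1 was 23.5% to 25.9% with TDB, against 27.6% to 37.2% with vehicle, and Areg 7.51% to 10.7% with TDB, against 12.2% to 13.7% with vehicle. In these 3 shares the groups did not overlap, but shares of 1 sum move together. Hbegf itself was at 18.3 TPM in TDB tumors and 19.1 TPM in vehicle tumors, although its share was higher with TDB. The share of Btc did overlap, at 15.4% to 16.1% with TDB and 11.5% to 19.8% with vehicle.

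**Figure D2:**
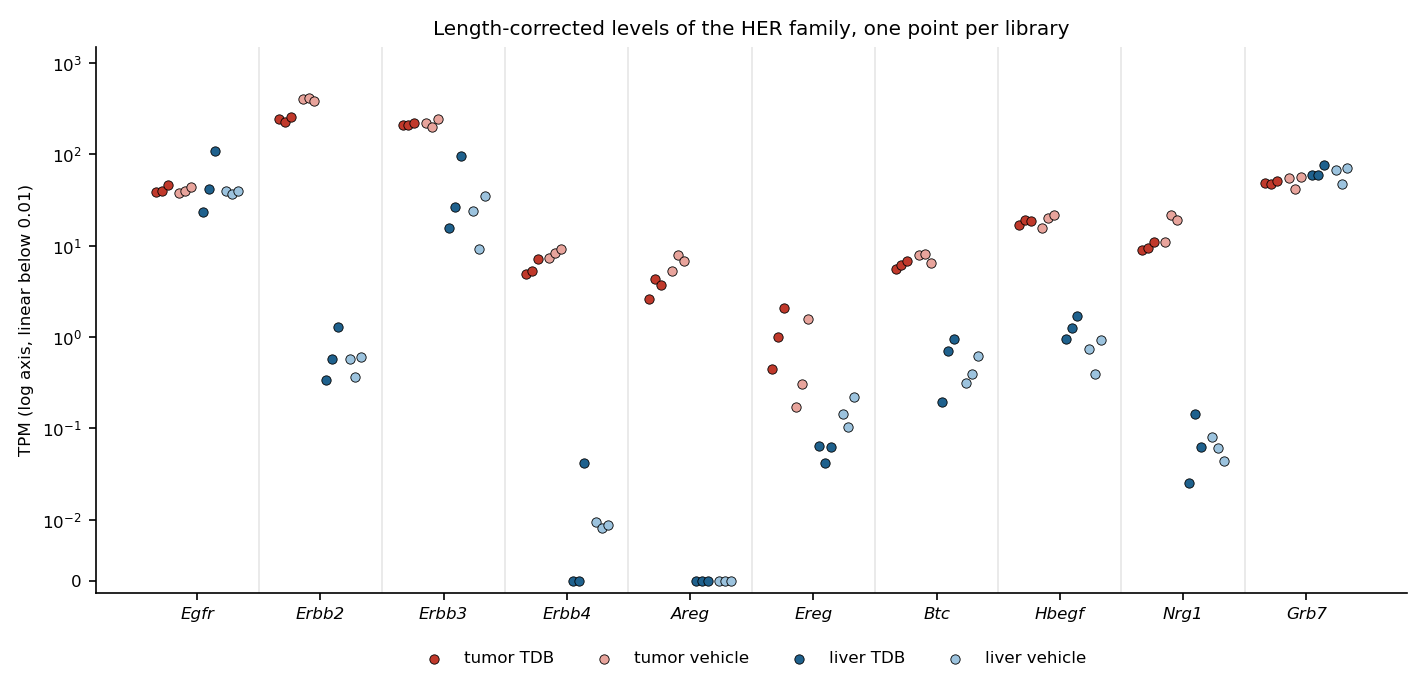
TPM of each gene in every library on a log axis that turns linear below 0.01, for tumor TDB, tumor vehicle, liver TDB and liver vehicle from left to right within each gene. Erbb2 lies at 225 to 416 TPM in tumor and at 0.338 to 1.3 TPM in liver, while the levels of Egfr and Grb7 overlap between tissues; Areg is at 0 in every liver library.

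In liver the same comparison asked whether a tissue with few Erbb2 transcripts showed any family response. No member passed: 6 of the 10 had enough counts to test, 0 were called and 0 had an unadjusted p under 0.05 by edgeR's quasi-likelihood test, and DESeq2 also called 0. Of 13657 genes tested in liver 0.535% passed, 0.513% as higher and 0.022% as lower. Hbegf came nearest, with 2.26, 2.6 and 2.78 CPM in TDB livers, against 1.65, 1.01 and 1.99 CPM in vehicle livers. Each TDB liver was above each vehicle liver, as for 9.11% of genes tested (5.46% lay below), and the log2 fold change was 0.71 (SE 0.33, unadjusted p = 0.067, adjusted p = 0.675, edgeR's quasi-likelihood test). It stayed between 0.48 and 0.93 under all 12 alternatives, and was 0.65 without TDB 3. The summed level of 9 T cell markers was 26 to 32.3 CPM in TDB livers, against 12 to 14 CPM in vehicle livers, and that of 8 hepatocyte markers was 101242 to 126608 CPM in TDB livers, against 149018 to 179088 CPM in vehicle livers. Most of the hepatocyte sum was Alb, and the other 7 markers summed to 19498 to 31151 CPM in TDB livers, against 34813 to 39614 CPM in vehicle livers. Not every hepatocyte marker lay lower: Hnf4a, a liver transcription factor, had 736, 630 and 889 CPM in TDB livers, against 683, 533 and 740 CPM in vehicle livers. None of the 8 passed in edgeR's quasi-likelihood test, where 1 had an unadjusted p under 0.05, or in DESeq2 or the other liver alternatives run. The part of cell content in the Hbegf values was not tested.

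In liver the highest values of 3 receptors were in the library that stood apart. Egfr had 130, 203 and 420 CPM in TDB livers, against 210, 218 and 198 CPM in vehicle livers, with the highest value in TDB 3. The log2 fold change was 0.27 (SE 0.4) with that library and -0.31 without it. Erbb3 had 45.3, 68.5 and 194 CPM in TDB livers, against 66.6, 29.5 and 92.6 CPM in vehicle livers, a log2 fold change of 0.71 (SE 0.6) with TDB 3 and -0.14 without it. Erbb2 had 0.852, 1.28 and 2.29 CPM in TDB livers, against 1.38, 1.01 and 1.39 CPM in vehicle livers, a log2 fold change of 0.22 (SE 0.43) with TDB 3 and -0.23 without it. In all 3 receptors the groups overlapped, and the direction rested on 1 library. Btc, at 0.426 to 1.45 CPM in TDB livers and 0.661 to 1.24 CPM in vehicle livers, had a log2 fold change of 0.18 (SE 0.51), and -0.07 without TDB 3. Grb7 had 97.1, 87.1 and 87 CPM in TDB livers, against 106, 84.5 and 104 CPM in vehicle livers (log2 fold change -0.12, SE 0.19, and -0.09 without TDB 3).

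The 4 other members were at the edge of detection in liver. Areg had 0 counts in all 6 libraries. Erbb4 had 4 counts in TDB livers, all in TDB 3, and 3 in vehicle livers, 1 in each library. Ereg had 3, 2 and 2 counts in TDB livers, against 5, 4 and 8 in vehicle livers, a depth-corrected ratio of 0.309 with a 95% exact counting interval of 0.108 to 0.784. The interval covers counting error only, and in an edgeR quasi-likelihood fit without the filter on low counts Ereg had an unadjusted p of 0.0709. Nrg1 had 25 counts in TDB livers, 17 of them in TDB 2, and 17 in vehicle livers (ratio 1.1, interval 0.573 to 2.18). For Erbb4, Areg and Nrg1 no difference was detectable at this depth. For Ereg the counting interval lay below 1 and each TDB liver had fewer counts than each vehicle liver, while the edgeR value did not reach an unadjusted p of 0.05.

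**Figure D3:**
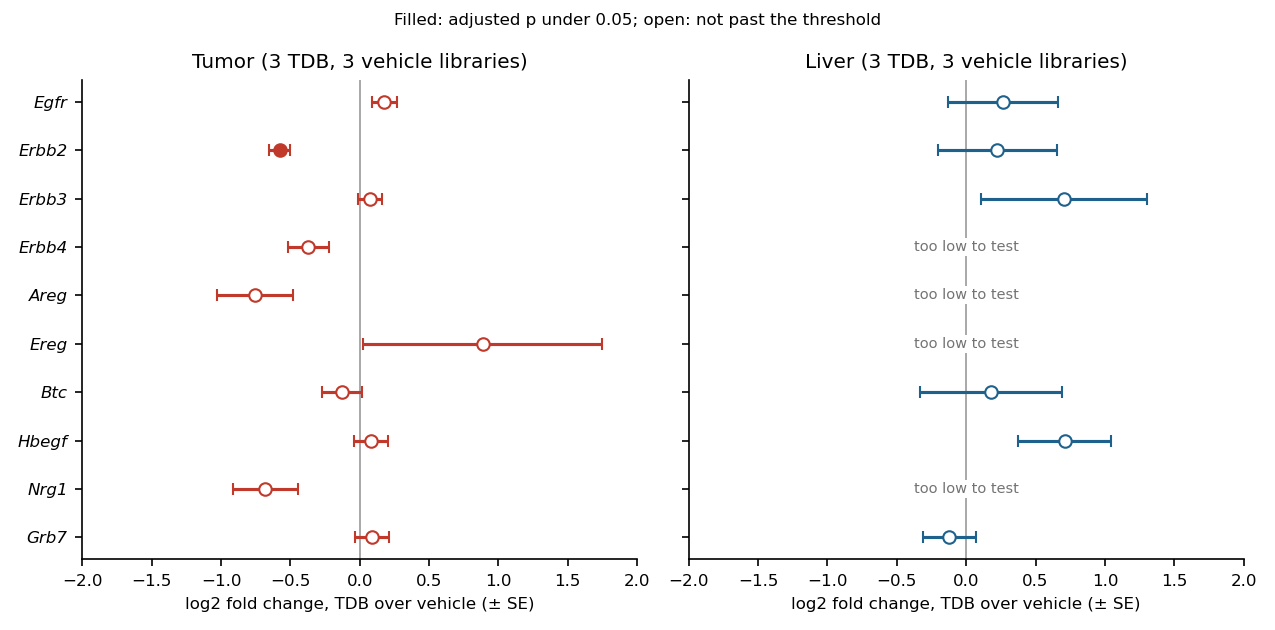
log2 fold change of TDB over vehicle with its SE for each gene in tumor (left) and liver (right), filled where the adjusted p is under 0.05. Erbb2 in tumor, at -0.58, is the filled point; 4 genes were too low to test in liver.

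Whether the TDB effect differed between tissues was tested as an interaction over all 12 libraries. No member passed, beside 2.49% of 16557 genes (1.83% higher and 0.658% lower in tumor), and 1 member had an unadjusted p under 0.05, as had 12.5% of all genes. DESeq2 also called 0. That member was Erbb2, whose tumor effect minus liver effect was -0.84 on the log2 scale (SE 0.38, unadjusted p = 0.0472, adjusted p = 0.389, edgeR's quasi-likelihood test), and -0.32 without liver TDB 3. For Hbegf the difference was -0.67 (SE 0.32, adjusted p = 0.436; -0.53 without liver TDB 3) and for Ereg 2.46 (SE 1.28, adjusted p = 0.493; 2.47 without it), by the same edgeR quasi-likelihood test. For Areg it could not be estimated, since liver had no counts.

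More members were called between tissues than between treatments, and the same held for all genes tested. Between treatments 28.8% of all genes passed in tumor and 0.535% in liver, against 75.6% between vehicle tissues. In vehicle mice 7 members were higher and 2 were lower in tumor than in liver, among genes of which 39.5% and 36.1% passed in those directions (edgeR's quasi-likelihood test, 75.6% in all). Erbb2 averaged 359 ± 10.8 CPM in vehicle tumors and 1.96 ± 0.356 CPM in vehicle livers (12-library scaling, n = 3 each), a log2 fold change of 7.51 (SE 0.32). Erbb4 had 1747 counts over the vehicle tumors and 3 over the vehicle livers, a depth-corrected ratio of 212 (95% exact interval 72.4 to 1029). Areg had 139 counts in vehicle tumors and 0 in vehicle livers, which makes it at least 16.9-fold higher in tumor, taking 3 counts over the liver group as the floor. Nrg1 was 6.01 higher on the log2 scale (SE 0.45), Hbegf 2.71 (SE 0.24), Btc 1.97 (SE 0.36) and Erbb3 1.24 (SE 0.48). The Erbb3 call had adjusted p = 0.0328 by edgeR's quasi-likelihood test and was lost without liver vehicle 1, liver vehicle 2, tumor vehicle 1 or tumor vehicle 3 (log2 fold changes 0.89 to 1.29). It was also lost without the filter on low counts (1.30, adjusted p = 0.0573, same edgeR test). Ereg, at 0.487 ± 0.555 CPM in vehicle tumors and 0.465 ± 0.139 CPM in vehicle livers, did not pass with the standard scaling.

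Egfr and Grb7 were the 2 members lower in vehicle tumor than in vehicle liver with the standard scaling, by -2.04 (SE 0.32) and -2.37 (SE 0.17) on the log2 scale. A few genes take a large share of liver counts, and without scaling factors the median of all genes moved to 1.43, against 0.11 with them, while with library sizes taken as summed counts per kilobase it moved to 2.2. Relative to the median of all genes, Egfr was at -2.15 with the standard scaling and at -2.14 under both of those settings, and Grb7 was at -2.48, -2.48 and -2.49. Their unshifted log2 fold changes were -0.71 and 0.06 for Egfr (adjusted p = 0.0778 and 0.887) and -1.05 and -0.29 for Grb7 (adjusted p = 0.000119 and 0.189), by edgeR's quasi-likelihood test. In TPM, Egfr was at 37.6 to 43.8 in vehicle tumors and 36.4 to 40.1 in vehicle livers, and Grb7 at 41.3 to 56.2 in vehicle tumors and 47.6 to 70.4 in vehicle livers. The other 7 calls held under both settings. Ereg was at -0.04, -0.07 and -0.07 relative to the median. Its unshifted log2 fold change passed with counts per kilobase (2.13, adjusted p = 0.0303, same edgeR test), where the median was 2.2. In vehicle livers the receptor pool was 64.6% ± 13.4 Egfr and 34.6% ± 13.3 Erbb3, with 0.829% ± 0.0487 Erbb2.

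After TDB, 7 members were higher and 2 lower in tumor than in liver, beside 36.6% and 35.5% of genes (edgeR's quasi-likelihood test, 72.1% in all). The tissue gap of Erbb2 was 6.68 on the log2 scale (SE 0.31; 7.13 without liver TDB 3), and Areg was at least 12.7-fold higher in tumor by the same floor. Ereg passed here (log2 fold change 2.52, SE 0.92, adjusted p = 0.0267 by edgeR's quasi-likelihood test), at 0.863 ± 0.596 CPM in TDB tumors and 0.147 ± 0.0432 CPM in TDB livers. It was lost without liver TDB 2, liver TDB 3 or tumor TDB 3 (log2 fold changes 1.88 to 2.47). Erbb3 did not pass with the standard scaling (log2 fold change 0.57, SE 0.47) unless liver TDB 3 was left out, when it was 1.42 (adjusted p = 0.00401, same edgeR test). With all libraries kept it passed without scaling factors (1.65, adjusted p = 0.0119) and with counts per kilobase (2.21, adjusted p = 0.00512), by the same edgeR test. The median of all genes was 0.06 with the standard scaling, 1.19 without scaling factors and 1.84 with counts per kilobase, and relative to it Erbb3 was at 0.51, 0.46 and 0.38. Egfr and Grb7 were again the lower pair, at -2.16 and -2.21, and at -1.57 and -2.23 without liver TDB 3. Relative to the median, Egfr was at -2.22, -2.26 and -2.33 and Grb7 at -2.27, -2.26 and -2.25 under the 3 scalings. With counts per kilobase neither passed (-0.49 and -0.42 before that shift). The 2 tissue contrasts differ by the interaction given above and share its libraries.

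The genes most like Erbb2 across the 12 libraries were found by the root-mean-square distance between mean-centred log2 profiles over 16557 genes. They were Chrm3 (distance 0.218), Sh3bp4 (0.258), Itgb4 (0.276), Ckmt1 (0.303) and Stk26 (0.305). Itgb4 encodes an integrin subunit of epithelial basement membrane contacts, and Chrm3 a muscarinic receptor. Their group means were 68.9 to 202 CPM in tumor and 0.141 to 1.48 CPM in liver. These libraries include the tumors, so the tumor fold changes of the 5 genes are given as a description, with no test. Stk26, a serine/threonine kinase, had a log2 fold change of -0.76 for TDB over vehicle, Ckmt1, a mitochondrial creatine kinase, -0.32, Chrm3 -0.22, Sh3bp4 -0.25 and Itgb4 -0.18.

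Erbb2 sits in a gene-dense stretch of chromosome 11 whose human counterpart is co-amplified with HER2 in breast cancer, and 14 neighbours other than Grb7 were examined. In tumor 3 of 10 testable neighbours were higher and 2 were lower with TDB (edgeR's quasi-likelihood test), beside 15.8% and 13.1% of all genes. The largest difference was in Ikzf3, a lymphocyte transcription factor, with 4.9, 4.52 and 2.64 CPM in TDB tumors, against 0.412, 0.181 and 0.265 CPM in vehicle tumors (log2 fold change 3.79, SE 0.38). It moved beside the T cell markers given above, and their part in it was not tested. Med1, a Mediator subunit, rose by 0.61 (SE 0.07) and the kinase gene Cdk12 by 0.44 (SE 0.09), while Ormdl3, a regulator of sphingolipid synthesis, fell by 0.67 (SE 0.08). Mien1, named after its values were seen because it overlaps Erbb2, had 88.4, 85.6 and 82.5 CPM in TDB tumors, against 110, 101 and 114 CPM in vehicle tumors (log2 fold change -0.34, SE 0.07, adjusted p = 0.00647 by the same test). In vehicle tumors Mien1 was at 566 TPM and Pgap3, the neighbour on the other side, at 37.8 TPM. Of the 12 tested genes of this stretch, Grb7 and Erbb2 included, Erbb2 had the highest tumor over liver log2 fold change in vehicle mice (7.51), followed by Cdk12 (3.03) and Pgap3 (2.26).

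The rest of the pathway was read from 9 lists with 95 genes. In tumor 89 were testable, of which 20 were higher and 18 lower with TDB (edgeR's quasi-likelihood test), beside 15.8% and 13.1% of all genes. The 89 genes had a median log2 fold change of -0.001 beside -0.02 over all genes. In liver 82 were testable, 0 passed, and 7 had an unadjusted p under 0.05, as had 8.09% of all genes (DESeq2 and the other alternatives called 0 to 1). Among other HER ligands in tumor, Tgfa, an Egfr ligand, was lower (37.9 ± 6.01 CPM with TDB and 55.6 ± 11 CPM with vehicle, log2 fold change -0.55) and Nrg2, a neuregulin, was higher by 0.29, with 2 of 4 testable genes not passing. Of 6 genes of ligand shedding, Rhbdf2, an iRhom that guides the sheddase Adam17, was higher by 0.32 and the others did not pass. Among 15 receptor adaptors 3 were higher and 3 lower. Gab2, a docking protein that recruits PI3-kinase, rose to 60.1, 73 and 61.9 CPM in TDB tumors, against 27.7, 28.7 and 30.7 CPM in vehicle tumors (log2 fold change 1.16, SE 0.09). Grb14, of the same adaptor family as Grb7, fell by 1.41 (SE 0.27), Grb10, another of that family, by 0.76 (SE 0.21) and Nck1, an SH2-SH3 adaptor, by 0.51 (SE 0.08).

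Down the cascades the calls ran in both directions. Of 10 RAS-MAPK genes 2 were higher, Nras (log2 fold change 0.54, SE 0.06) and Map2k1 (0.23, SE 0.07), and 2 were lower, Hras (-0.32, SE 0.10) and Mapk3 (-0.30, SE 0.08). Of 12 PI3K-AKT genes 2 were higher and 1 was lower. Among them the kinase gene Mtor rose by 0.36 (SE 0.09), and the regulatory subunit gene Pik3r3 fell to 119 ± 6.22 CPM in TDB tumors, against 198 ± 28.8 CPM in vehicle tumors (log2 fold change -0.73, SE 0.10). Of 17 feedback inhibitors 4 were higher and 5 lower. Spry4 and Spry1, Sprouty inhibitors of RAS signalling, fell by 1.00 (SE 0.11) and 0.78 (SE 0.09), while Cbl, a ubiquitin ligase of activated receptors, rose by 0.59 (SE 0.13) and Errfi1, an inhibitor of Egfr and Erbb2 kinases, by 0.45 (SE 0.09). The adjusted p-values of these 10 genes were at or below 0.0456 by edgeR's quasi-likelihood test.

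Of 9 ERK output genes 1 was higher and 3 were lower in tumor. The cyclin D1 gene Ccnd1 fell to 413, 249 and 401 CPM in TDB tumors, against 835, 846 and 982 CPM in vehicle tumors, with no overlap (log2 fold change -1.33, SE 0.19, adjusted p = 0.00224, edgeR's quasi-likelihood test). In liver it had 232, 177 and 257 CPM in TDB livers, against 149, 146 and 166 CPM in vehicle livers (log2 fold change 0.53, adjusted p = 0.535; 0.42 without TDB 3), and the difference between tissues was -1.90 (SE 0.30, adjusted p = 0.00556; -1.71 without liver TDB 3), by the same edgeR test. Etv4 fell by 0.45 (SE 0.10) and Phlda1 by 0.34 (SE 0.09), while the immediate early gene Fos rose by 0.76 (SE 0.19). Of 6 genes of HER2 stability and partners 3 were higher and 1 lower. Muc4, a membrane mucin that binds HER2, rose to 5.75, 9.83 and 4.01 CPM in TDB tumors, against 0.366, 0.768 and 0.397 CPM in vehicle tumors (log2 fold change 3.67, SE 0.43). It had 0 counts in liver. Muc1, another mucin, rose by 0.73 (SE 0.08), the chaperone gene Hsp90ab1 by 0.31 (SE 0.09), and the ubiquitin ligase gene Stub1 fell by 0.26 (SE 0.08). The epithelial and immune marker values given for Erbb2 apply to these genes as well, and the part of cell content in them was not tested.

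Of the 30 pathway and neighbour genes named for tumor, 10 kept their call in all 12 alternatives: Grb14, Gab2, Nck1, Nras, Pik3r3, Spry1, Ccnd1, Muc4, Ikzf3 and Ormdl3. Another 8 lost it in the fit of all 12 libraries and in no other: Spry4, Cbl, Errfi1, Etv4, Muc1, Med1, Cdk12 and Mien1. The other 12 lost it in the fit of all 12 libraries and also when single tumor libraries were left out. Of these, Tgfa, Nrg2, Grb10, Map2k1, Fos and Hsp90ab1 lost it in further settings too (no filter, upper quartile scaling or replicate block). For Tgfa the left-out libraries that cost the call were vehicle 2, vehicle 3, TDB 2 and TDB 3 (log2 fold changes -0.56 to -0.39), and for Fos vehicle 1, vehicle 2, TDB 2 and TDB 3 (0.63 to 0.75). For Nrg2 and Rhbdf2 they were vehicle 1, vehicle 2, TDB 1 and TDB 2 (0.22 to 0.32 and 0.26 to 0.32), and for Grb10 vehicle 1, TDB 1 and TDB 2 (-0.79 to -0.65). For Mapk3 and Hsp90ab1 they were vehicle 1 and each TDB library (-0.33 to -0.21 and 0.28 to 0.34), for Mtor vehicle 1, TDB 2 and TDB 3 (0.28 to 0.35), and for Phlda1 vehicle 1 and TDB 1 (-0.32 to -0.26). For Hras, Map2k1 and Stub1 they were all but vehicle 3 (-0.35 to -0.20, 0.18 to 0.25 and -0.30 to -0.21). None of the 30 changed direction in any alternative.

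**Figure D4:**
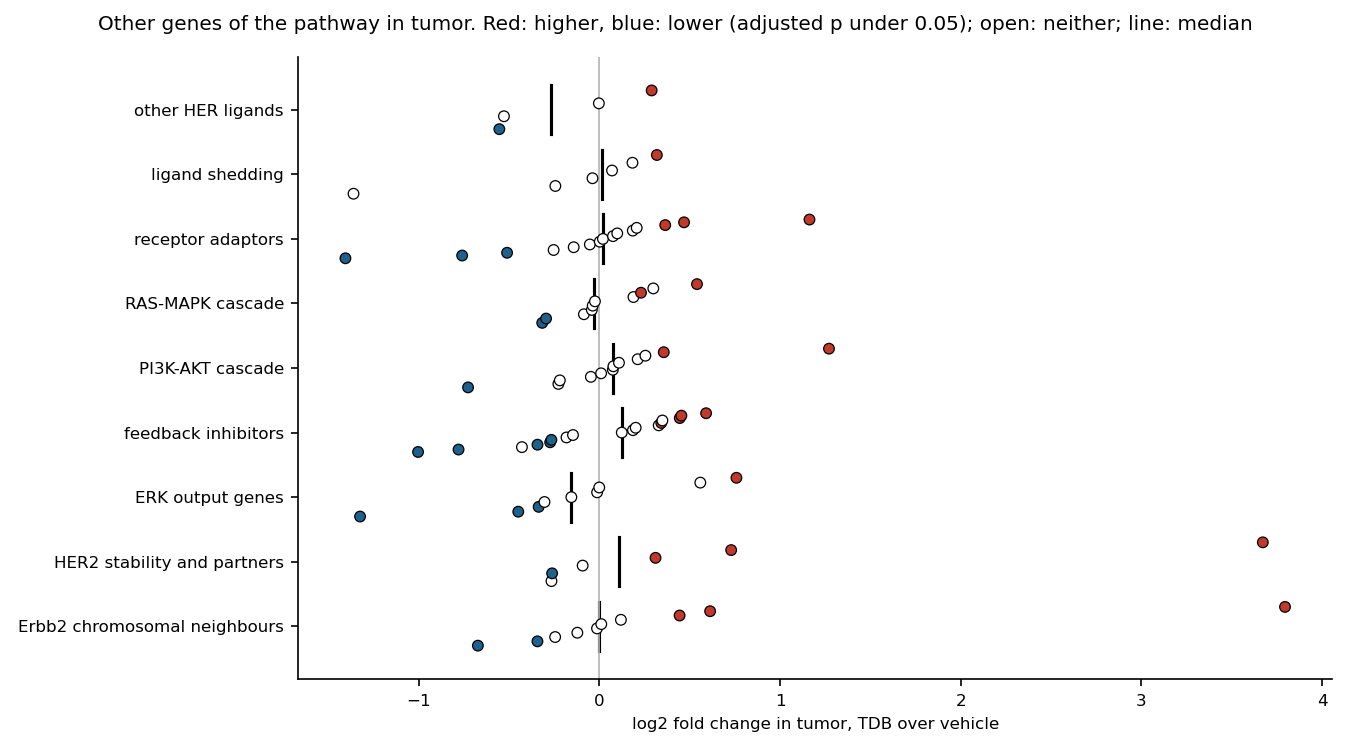
log2 fold change of TDB over vehicle in tumor for each testable gene of the 9 lists (rows); red points were higher and blue points lower at an adjusted p under 0.05, open points passed in neither direction, and vertical lines are list medians. Most points lie between -1 and 1, with Muc4 (3.67) and Ikzf3 (3.79) at the far right and Grb14 (-1.41) and Ccnd1 (-1.33) at the left.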

How the data were processed

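Total RNA of tumor and liver (12 libraries, 4 groups of 3) was sequenced on an Illumina instrument, per the labels' protocols. The authors deposited whole-number read counts per Ensembl gene, not normalized, for 52636 identifiers. GSNAP, limma and the build GRCm38 are named without a role, per the submitters' processing notes, while no source used here gives the counter, annotation or strand setting. A deposited FPKM table was not used. Tissue and treatment came from the library titles. The 10 members, the naming rule and the pathway and marker lists were picked with earlier results of these data known, and the motif TGACGTCA was added after the windows were read.

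The test was the robust quasi-likelihood F test of edgeR 4.0.16 (R 4.3.3) on the deposited counts, with TMM scaling and filterByExpr (minimum count 10, total 15), adjusted by Benjamini and Hochberg over all genes tested at a threshold of 0.05. TDB against vehicle was fitted within each tissue (6 libraries), and the tissue contrasts and the interaction in a fit of 4 group means (12 libraries). The fit of 12 libraries took them as independent, although tumor and liver libraries may come from the same mice. The code was tested on simulated data. CPM used scaled library sizes of the tissue, or of all 12 libraries for tissue comparisons, and TPM used counts and GENCODE M21 exonic lengths, matched for 52489 identifiers. The other 147 held at most 0.00643% of a library. Up to 4 genes of each list past the threshold with the largest fold changes were named, or up to 2 with the smallest p where none passed; 1 gene that this names is not reported here. Profiles for likeness used log2 of CPM plus 0.5. Intervals of count ratios (95%) and the floor of 3 counts cover counting error only. Alternatives were median-of-ratios and upper quartile scaling, no filter, DESeq2 1.42.0, a replicate block, a fit of all 12 libraries, leaving out each library and, added after seeing the data, the tissue contrasts without scaling factors or with counts per kilobase. No pair of libraries agreed within sampling noise.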

Additional observations from a re-analysis of the deposited data

How the results depend on the processing

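Of the 10 members, 1 was called in tumor, against 3 with upper quartile scaling (Erbb2, Erbb4 and Areg), 2 without the filter (Erbb2 and Erbb4), 2 by DESeq2 (Erbb2 and Nrg1), 0 in the fit of all 12 libraries and 1 to 2 when single libraries were left out. TDB and vehicle libraries came from different mice, so their numbers cannot pair them. Deviations of same-numbered ones correlated at 0.0769, 0.0346 and 0.324 in tumor and at -0.109, 0.504 and 0.641 in liver. Those of different-numbered ones ran from -0.276 to 0.243 in tumor and from -0.627 to 0.553 in liver. Tumor and liver libraries may share mice, but which ones do is not given. For same-numbered tumor and liver libraries the correlations were -0.0408, -0.0658 and 0.117 with vehicle and 0.0533, 0.035 and 0.126 with TDB. These values do not show which libraries share a mouse. With a replicate block 3 members were called in tumor (Erbb2, Erbb4 and Nrg1), 0 in liver and 0 in the interaction. Over all genes, 350 were called in liver with that block. The counts of 0 in liver and in the interaction held in all alternatives run, and the tissue counts of 9 were 8 to 9 in vehicle mice and 8 to 10 in TDB mice.

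Members changed sign as follows, all but Egfr between vehicle tissues uncalled. In tumor Erbb3 was at -0.00068 with upper quartile scaling, -0.014 with all 12 libraries and -0.0039 to 0.14 with a library left out, Hbegf at -0.0035 with all 12 libraries and -0.037 to 0.19 with a library left out, and Grb7 at -0.052 to 0.17. In liver the ranges with a library left out were -0.31 to 0.58 for Egfr, -0.23 to 0.49 for Erbb2, -0.14 to 1.09 for Erbb3 and -0.073 to 0.55 for Btc. In the interaction they were -0.43 to 0.52 for Egfr, -1.05 to 0.26 for Erbb3, -1.08 to 3.80 for Erbb4 and -1.26 to 0.072 for Nrg1. Between vehicle tissues Ereg was at -0.17 with the block and -1.45 to 0.52 with a library left out, and Egfr, called at -2.04, was at 0.063 with counts per kilobase (added after seeing the data), where the median of all genes was 2.2. Apart from left-out libraries and scaling by construction, the cause was not tested.

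Over all genes, tumor calls were 4456 (1695 with all 12 libraries, 2942 without tumor TDB 2), liver calls 73 (14 to 163 with a library left out, 145 without the filter, 323 with all 12 libraries, 352 by DESeq2) and interaction calls 412 (241 to 696 with a library left out, 892 by DESeq2). Upper quartile scaling made 41% of tumor calls higher, against 54.7%. The 4 members with the fewest liver counts gave no test there, and p-values measure the spread between these mice only.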

Other observations

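In liver, the 7 pathway genes with an unadjusted p under 0.05 (of 82 tested, none past an adjusted p of 0.05, beside 8.09% of all genes with such an unadjusted p) were Fos, Nrg4, Ptpn1, Ccnd1, Gab2, Rhbdf2 and Myc. Myc was outside the naming rule and is given because the count is small. Fos had 3.19, 2.75 and 4.81 CPM in TDB livers, against 0.881, 0.896 and 1.89 CPM in vehicle livers (log2 fold change 1.54, adjusted p = 0.266, edgeR's quasi-likelihood test; 1.27 without TDB 3). Nrg4, a neuregulin, was the one of the 7 that was lower, with 1.66, 2.04 and 0.882 CPM in TDB livers, against 2.97, 4.48 and 2.68 CPM in vehicle livers (log2 fold change -1.14, adjusted p = 0.439, same edgeR test; -0.85 without TDB 3). In both genes the groups did not overlap, as for 14.6% of all genes tested in liver. The other 5 had log2 fold changes of 0.52 to 1.13, and Fos passed in 3 of 12 alternatives while Nrg4, Ptpn1, Ccnd1, Gab2 and Rhbdf2 passed in 0.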
